A study of Mus musculus with 9 samples.

Results

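The genes described here are 8 targets of PPARA or enzymes of fatty acid oxidation in mouse liver: Cyp4a10, Cyp4a14, Cd36, Acadm, Cpt1a, Ehhadh, Pdk4 and Angptl4. They were chosen by name, and all 8 were found among the 26282 genes with at least 1 unique molecular identifier (UMI, a tag that counts each captured transcript once). Cells of 9 livers had been profiled by Drop-seq, in which single cells are caught in droplets with barcoded beads. The donors were wild-type male C57BL/6 mice aged 8 weeks, and each had been injected intravenously with PBS (mice 1, 4 and 7), AAVrh.10Null (mice 2, 5 and 8) or AAVrh.10mCherry (mice 3, 6 and 9), with n = 3 mice per group. AAVrh.10 is an adeno-associated virus serotype. The labels name no promoter for the vectors, and no source used here gives the dose, the interval to collection or the feeding state. Each level below is in counts per 1000000 (CPM), that is the UMIs of a gene per 1000000 UMIs of the liver, over barcodes with at least 200 detected genes. The 8 genes together took 46794 of 53047251 UMIs.

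PPARA is a nuclear receptor that is bound by fatty acids and, with its partner RXRA, turns on genes of lipid use, most strongly in liver during fasting. Its targets take up fatty acids, carry them into mitochondria and peroxisomes for beta-oxidation, oxidise their far end in the endoplasmic reticulum, and switch pyruvate away from combustion. Cyp4a10 and Cyp4a14 are among its most inducible hepatic targets, while Acadm and Cpt1a serve beta-oxidation in many tissues and also answer to other signals.

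On the GRCm38 assembly (GENCODE M21; the submitters' build is mm10, the same assembly) all 8 are protein-coding genes. Cyp4a14 (chr4:115486200-115496142, minus strand) and Cyp4a10 (chr4:115518264-115533649, plus strand) are neighbours, and the annotation places Cyp4a31 and Cyp4a32 just beyond Cyp4a10. Acadm lies at chr3:153922357-153944632, Ehhadh at chr16:21761287-21787807, Cpt1a at chr19:3322334-3385733, Cd36 at chr5:17781690-17888801, Pdk4 at chr6:5483351-5496309 and Angptl4 at chr17:33773750-33781830. UMIs were counted per gene, so positions within exons or introns cannot be given. No source used here says how reads shared by the similar Cyp4a copies were assigned, so the split among them is uncertain.

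PPARA and RXRA bind direct repeats of a hexamer, AGGTCA. The dehydrogenase Acadm and the peroxisomal enzyme Ehhadh were higher in every AAVrh.10mCherry liver than in any AAVrh.10Null liver (values below). For that reason the 250 bases before the RefSeq start sites of Acadm and Ehhadh (GRCm38.p6, minus strand, 5′ to 3′) are shown. Pdk4 had this order too, from few UMIs, and its window, not shown, held no such hexamer. Among 11321 tested genes, 12% had this order. Capitals mark AGGTCA or its reverse complement TGACCT.
Acadm, chr3:153944644-153944893: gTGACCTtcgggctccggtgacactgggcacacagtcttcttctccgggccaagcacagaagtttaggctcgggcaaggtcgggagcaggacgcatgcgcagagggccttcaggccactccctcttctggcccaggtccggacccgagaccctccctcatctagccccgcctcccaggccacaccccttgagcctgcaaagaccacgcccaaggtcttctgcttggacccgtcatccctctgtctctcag
Ehhadh, chr16:21787835-21788084: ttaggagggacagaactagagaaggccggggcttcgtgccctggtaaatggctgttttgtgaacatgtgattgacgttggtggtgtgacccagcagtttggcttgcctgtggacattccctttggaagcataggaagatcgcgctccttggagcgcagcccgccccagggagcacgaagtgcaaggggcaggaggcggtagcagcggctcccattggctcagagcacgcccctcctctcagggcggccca
RefSeq windows were matched for 5 members (Acadm, Cd36, Cpt1a, Ehhadh and Pdk4). The hexamer, searched on both strands, was in 3 of these 5 windows: Acadm at -249 to -244, Cd36 at -228 to -223 and Cpt1a at -94 to -89 from the start site. It was in 14.0% of 32851 windows of the same length. A looser direct repeat, 2 copies of AGGNCA with 1 base between them on either strand, was in 0 of the 5 and in 0.338% of all windows. These matches describe letters only and say nothing of binding. The Cd36 window (chr5:17835897-17836146) and the Cpt1a window (chr19:3323051-3323300) lie inside the gene spans given above. Their RefSeq start sites are thus within the annotated genes and not at the outer ends.

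Several libraries stood apart before any comparison. The retained barcodes numbered 550 in mouse 7 and 3997 to 7195 in the other mice, with 291338 UMIs in mouse 7 and 4234127 to 11220147 in the others. Barcodes ending in an undetermined base were 7 and 20 of 7200 in mice 2 and 8 and 174 of 3600 in mouse 7, but 1056 to 1735 in the other mice. Mitochondrial transcripts took 17.8% and 17.3% of UMIs in mice 6 and 8 and 3.43% to 10.2% in the others. The nuclear RNA Malat1 was at 23010, 15944 and 15016 CPM in mice 2, 7 and 8 and at 2769 to 10265 in the others. Between any pair of livers at most 6 barcodes were shared. All 6 hepatocyte markers were detected in each liver, at a summed level of 94448 to 131359 CPM. Igkv3-12, the only gene that edgeR called between treatments with the settings used here throughout, was at 124 to 248 CPM in the AAVrh.10Null livers and at most 2.97 in the others. mCherry was at 1797 to 7979 CPM in the AAVrh.10mCherry livers and at most 24.3 in the others. These sums mix cell types, so fewer cells of a type and less RNA per cell cannot be told apart.

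Of the 6 members with a mean of at least 20 CPM, the omega-hydroxylases had the largest SD of log2 level between livers (Cd36 and Pdk4 are scarcer and were not ranked). Cyp4a14, a cytochrome P450 that hydroxylates the terminal carbon of fatty acids, was at 20.1, 114 and 110 CPM in the PBS mice 1, 4 and 7. The AAVrh.10Null mice 2, 5 and 8 had 15.2, 18.7 and 111, and the AAVrh.10mCherry mice 3, 6 and 9 had 22.6, 394 and 89.1. The livers thus fell into a low set (mice 1, 2, 3 and 5) and a higher set (mice 4, 6, 7, 8 and 9), and each treatment had livers in both. The exact 95% Poisson interval of mouse 9 (82.9 to 95.6) lay above that of mouse 3 (18.9 to 26.8), so counting error does not bridge the gap. Its highest level was 26.0 times its lowest. The SD of its log2 level over the 9 livers was 1.37, against a median of 0.30 over 4479 genes with a mean of at least 20 CPM, and only 0.447% of these genes varied more.

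**Figure D1:**
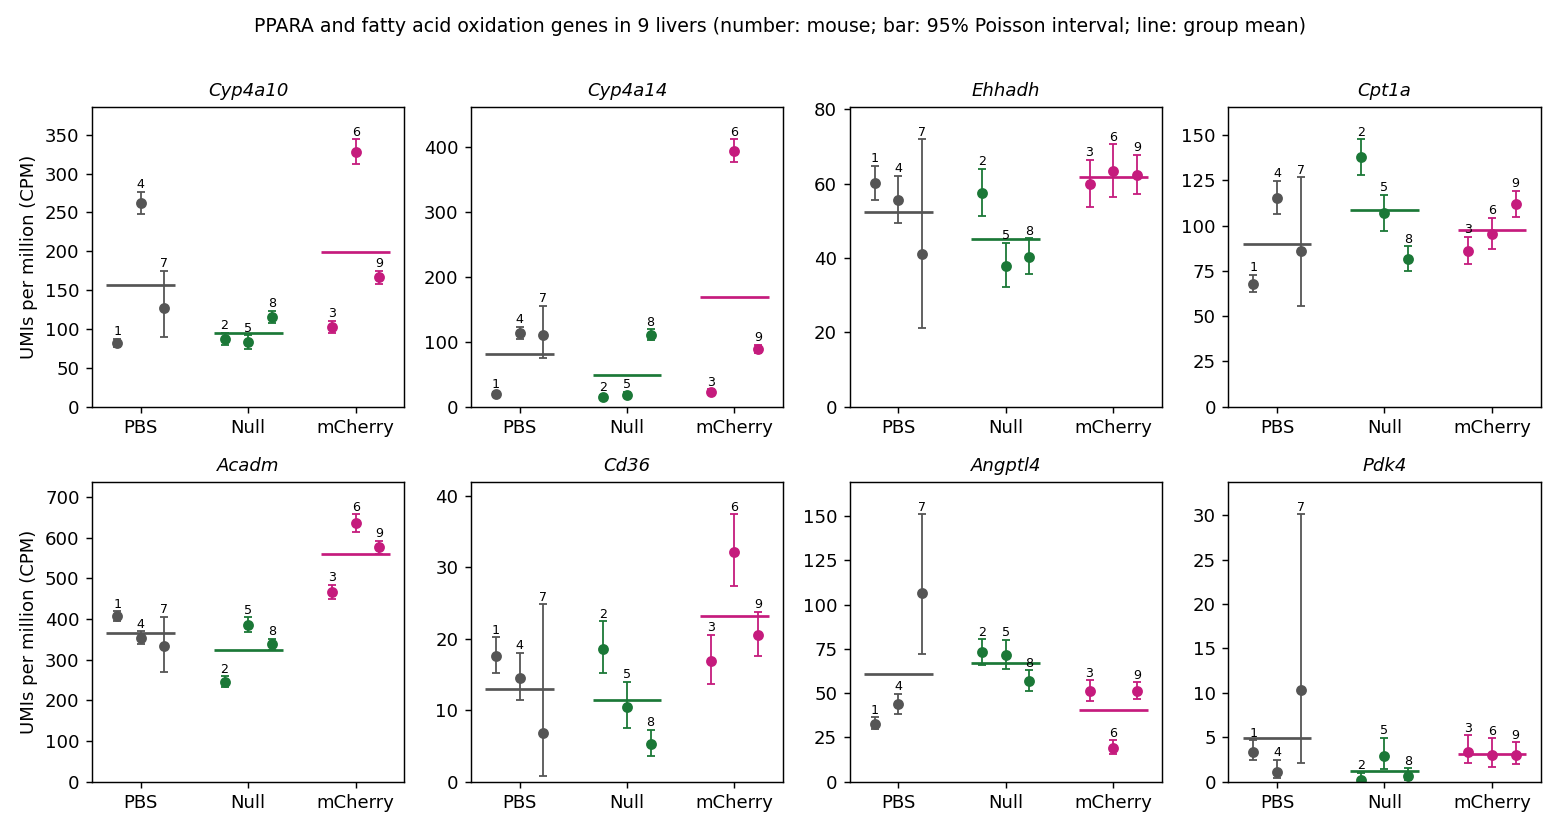
Levels in CPM (vertical axis) of the 8 genes in each liver by treatment (horizontal axis). Points are livers with the mouse number, bars are exact 95% Poisson intervals and lines are group means. Cyp4a14 reaches 394 in mouse 6, and Acadm lies at 466 to 636 in the 3 AAVrh.10mCherry livers, above all other livers.

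Cyp4a10, a second fatty acid omega-hydroxylase, was at 82.2, 262 and 127 CPM in PBS mice 1, 4 and 7, and at 87.0, 82.7 and 115 in AAVrh.10Null mice 2, 5 and 8. In AAVrh.10mCherry mice 3, 6 and 9 it was at 102, 328 and 166. Mice 6 and 4 were the highest, from different treatments, and 4.24% of the 4479 genes varied more over livers. The AAVrh.10mCherry mean was 199 ± 116 against 94.9 ± 17.7 in AAVrh.10Null and 157 ± 93.7 in PBS (SD, n = 3 each), and every pair of groups overlapped. No group difference passed by edgeR's quasi-likelihood test (log2 change of AAVrh.10mCherry minus AAVrh.10Null 1.06, SE 0.45, adjusted p = 0.607). For Cyp4a14 the same difference was 1.79 (SE 0.96, adjusted p = 0.642 by edgeR). Against PBS, the AAVrh.10mCherry change was 0.32 (SE 0.45) for Cyp4a10 and 1.13 (SE 0.99) for Cyp4a14. Both turned below 0 without mouse 6, at -0.25 and -0.44, and Cyp4a10 was at -0.02 without mouse 1.

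The levels of 4 further Cyp4a genes differed from those of these members. Cyp4a31 and Cyp4a32 were scarce, at 2.41 to 10.3 and 2.18 to 8.02 CPM over all livers. Cyp4a12a, a male-biased hydroxylase that responds to growth hormone, was at 2.57 CPM in mouse 6, the liver with the most Cyp4a14, and at 78.7 to 257 in the other 8. Cyp4a12b was at 0.396 CPM in mouse 6 (2 UMIs) and at 15.5 to 89.1 elsewhere. Mouse 6 also had Acot3, an acyl-CoA thioesterase of peroxisomes, at 42.5 CPM against at most 3.96 in any other liver.

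**Figure D2:**
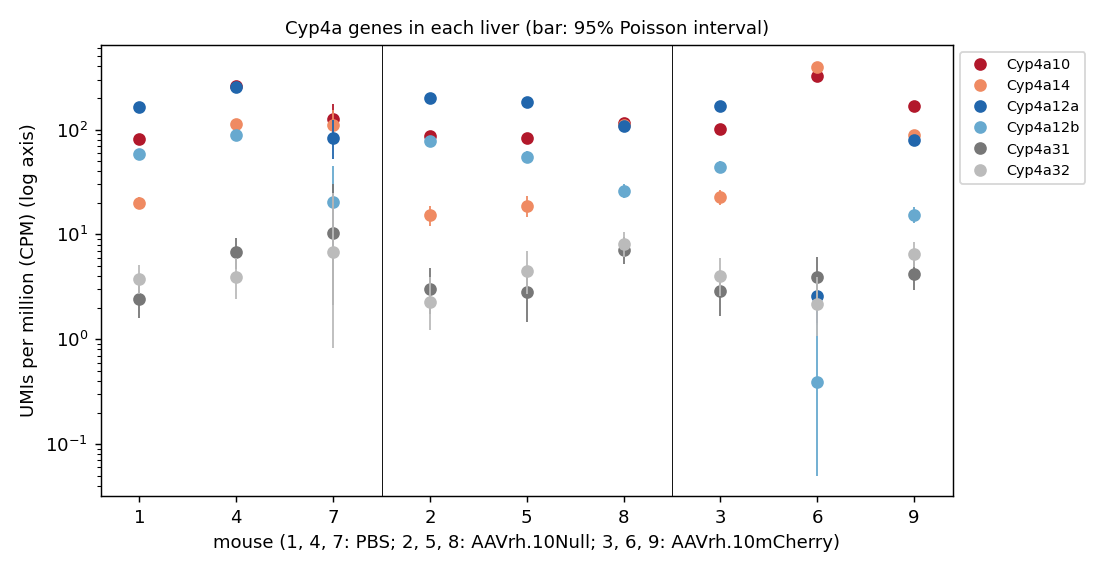
Levels in CPM (vertical log axis) of 6 Cyp4a genes in each liver (horizontal axis, ordered by treatment), with exact 95% Poisson intervals as bars. In mouse 6 Cyp4a10 and Cyp4a14 are at their highest (328 and 394) and Cyp4a12a and Cyp4a12b at their lowest (2.57 and 0.396).

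Ehhadh, the bifunctional enzyme of the peroxisomal beta-oxidation spiral, had the smallest ratio of highest to lowest liver of the 8 members, 1.68. It was at 60.2, 55.5 and 41.2 CPM in PBS mice 1, 4 and 7 and at 57.5, 37.8 and 40.3 in AAVrh.10Null mice 2, 5 and 8. In AAVrh.10mCherry mice 3, 6 and 9 it was at 59.9, 63.3 and 62.3. The 3 AAVrh.10mCherry livers were nearly equal and lay above all AAVrh.10Null livers, while mouse 1 (PBS) lay between mice 3 and 9. The Poisson intervals of mice 3 (53.8 to 66.4) and 2 (51.4 to 64.1) largely overlap, so the order of these livers is within counting error. Non-overlap of the vector groups in this direction held for 12% of 11321 genes. The AAVrh.10mCherry minus AAVrh.10Null log2 change was 0.45 (SE 0.21, adjusted p = 0.615 by edgeR), from 61.8 ± 1.78 against 45.2 ± 10.7 (SD, n = 3), and did not pass.

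In the mitochondrial arm, Acadm showed the clearest order of groups. It encodes the medium-chain acyl-CoA dehydrogenase, which starts each turn of beta-oxidation on medium chains. Its levels were 407, 354 and 333 CPM in PBS mice 1, 4 and 7, then 246, 386 and 338 in AAVrh.10Null mice 2, 5 and 8. In AAVrh.10mCherry mice 3, 6 and 9 they were 466, 636 and 576. Each AAVrh.10mCherry liver was above each of the other 6, while PBS and AAVrh.10Null overlapped. Non-overlap in this direction held for 14.4% of 11321 genes against PBS and for 12% against AAVrh.10Null. The log2 change was 0.61 (SE 0.24, adjusted p = 0.498 by edgeR) against PBS and 0.79 (SE 0.24, adjusted p = 0.607 by edgeR) against AAVrh.10Null, so neither passed. It ranged from 0.51 to 0.73 and from 0.63 to 0.94 when each mouse was left out in turn. The member with the nearest pattern was Ehhadh, with a root mean square difference of 0.35 between their centred log2 levels over 9 livers. Cd36 was nearly as near, at 0.37. The spread of Acadm itself was 0.39, so neither member followed it closely.

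Cpt1a makes the acylcarnitines that enter mitochondria and is the controlled step of long-chain oxidation. It was at 67.9, 115 and 85.8 CPM in PBS mice 1, 4 and 7, at 138, 107 and 81.4 in AAVrh.10Null mice 2, 5 and 8, and at 86.2, 95.4 and 112 in AAVrh.10mCherry mice 3, 6 and 9. The 3 groups overlapped throughout, with means of 89.6 ± 23.8, 109 ± 28.1 and 97.8 ± 13.0 (SD, n = 3). The log2 change of AAVrh.10mCherry against PBS was 0.12 (SE 0.27), and its sign turned under TMM scaling (-0.01), DESeq2 (-0.00) or without mouse 1 (-0.08).

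Cd36, a fatty acid translocase of the cell surface, was sparse, with 898 UMIs over all livers. It was at 17.6, 14.4 and 6.86 CPM in PBS mice 1, 4 and 7, where mouse 7 held 2 UMIs. AAVrh.10Null mice 2, 5 and 8 had 18.5, 10.4 and 5.20, and AAVrh.10mCherry mice 3, 6 and 9 had 16.9, 32.1 and 20.5. Mouse 6 was the highest, and the AAVrh.10mCherry range overlapped both others. The AAVrh.10mCherry minus AAVrh.10Null log2 change was 1.02 (SE 0.40, adjusted p = 0.607 by edgeR), and against PBS it was 0.61 (SE 0.41).

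Liver endothelium also carries Cd36, so its level was examined by barcode class. Barcodes with at least 3 UMIs from an 11-gene endothelial list, which leaves Cd36 out, numbered 776 and held 1.74% of the UMIs in the 3 classes but 23.7% of the Cd36 UMIs. Cd36 was at 229 CPM there (exact 95% Poisson interval 200 to 262, 212 UMIs), against 12.8 (11.9 to 13.8) in the 43887 barcodes with neither endothelial nor macrophage markers. This is a 17.9-fold ratio. It was higher in the endothelial-marker barcodes in 8 of 9 livers, at 119 to 377 CPM, and mouse 7 had 0 Cd36 UMIs among 27 such barcodes. In 230 macrophage-marker barcodes Cd36 was at 65.0 (39.7 to 100, 20 UMIs). The hepatocyte transcript Alb was at 67.1% of its level in the remaining barcodes even in the endothelial-marker class, and Acadm, Cpt1a, Ehhadh, Cyp4a10, Cyp4a14 and Angptl4 were at 66.4% to 98.3%. Pdk4 was also higher in the endothelial-marker class, at 7.57 CPM (3.05 to 15.6) against 2.28 (1.89 to 2.73), but from 7 UMIs. Barcodes chosen by markers differ in many genes by choice, so this contrast was given no test.

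**Figure D3:**
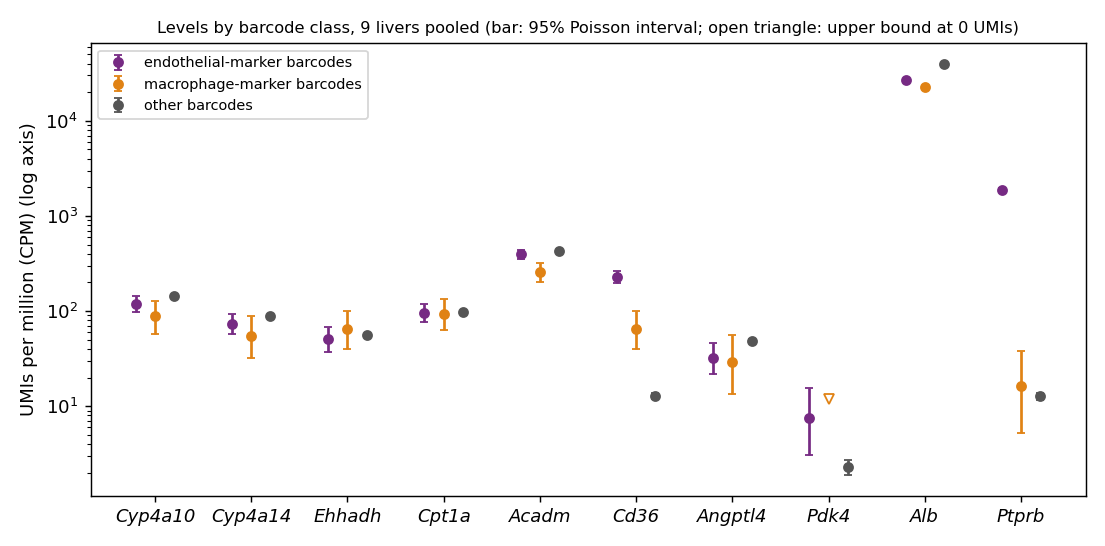
Levels in CPM (vertical log axis) of the 8 genes, Alb and the endothelial marker Ptprb in 3 classes of barcodes, pooled over 9 livers, with exact 95% Poisson intervals as bars and an open triangle for the upper bound at 0 UMIs. Cd36 is at 229 in endothelial-marker barcodes against 12.8 in the others, while Acadm, Cpt1a, Ehhadh, Cyp4a10, Cyp4a14 and Angptl4 are at 66.4% to 98.3% of their level in the others. Pdk4 is at 7.57 (7 UMIs) against 2.28.

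Endothelial markers summed to 512 CPM in mouse 6 and 97.3 to 494 in the other livers, and by group to 135 to 494 in PBS, 97.3 to 306 in AAVrh.10Null and 172 to 512 in AAVrh.10mCherry. At least 10 of the 11 markers were detected in every liver. In barcodes outside both marker classes, Cd36 was at 24.5 CPM in mouse 6, at 13.1 and 15.3 in mice 3 and 9, at 7.12 to 15.7 in the PBS livers and at 2.87 to 11.8 in the AAVrh.10Null livers. Among these barcodes the 3 AAVrh.10mCherry livers lay above all AAVrh.10Null livers, whereas in the whole-liver sums mouse 2 (AAVrh.10Null) lay above mouse 3. Mouse 3 (76 UMIs) and mouse 2 (65 UMIs) were close among these barcodes, so their order is not settled beyond counting error. The share of all genes with this group order was not computed for these barcodes and was 12% in whole-liver sums. The part of endothelial barcodes in the group levels was not tested.

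Pdk4 blocks pyruvate dehydrogenase by phosphorylation and is a classic fasting gene. Only 125 of its UMIs were counted. The PBS mice 1, 4 and 7 had 38, 6 and 3 UMIs (3.39, 1.13 and 10.3 CPM), and the AAVrh.10Null mice 2, 5 and 8 had 1, 12 and 4 UMIs (0.176, 2.83 and 0.594). The AAVrh.10mCherry mice 3, 6 and 9 had 20, 15 and 26 UMIs (3.37, 2.97 and 3.03). These livers were alike and just above the highest AAVrh.10Null liver, but the Poisson intervals of mice 5 (1.46 to 4.95) and 6 (1.66 to 4.89) nearly coincide, so this order is within counting error. The log2 change was 1.49 (SE 0.76, adjusted p = 0.629 by edgeR).

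Angptl4, a secreted inhibitor of lipoprotein lipase, differed from the enzymes in the order of its levels. It was at 32.8, 43.7 and 106 CPM in PBS mice 1, 4 and 7, at 73.0, 71.6 and 56.9 in AAVrh.10Null mice 2, 5 and 8, and at 51.1, 19.2 and 51.1 in AAVrh.10mCherry mice 3, 6 and 9. All AAVrh.10mCherry livers were below all AAVrh.10Null livers, an arrangement that 4.55% of tested genes showed in that direction. Mouse 6, with the most Cyp4a14, Cyp4a10, Acadm and Cd36, had the least Angptl4. The AAVrh.10mCherry minus AAVrh.10Null log2 change was -0.72 (SE 0.40, adjusted p = 0.643 by edgeR) and did not pass. Against PBS the change of -0.35 turned to 0.09 without mouse 7, whose 106 CPM rested on 31 UMIs.

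As a group, the members did not separate the treatments by the test. Of the 8, edgeR called 0 in each of the 3 comparisons at an adjusted p under 0.05, where 0.00883%, 0% and 0.00883% of 11321 genes were called. These were, in that order, AAVrh.10Null against PBS, AAVrh.10mCherry against PBS, and the vectors against each other. The mCherry transgene was not called either, at a log2 change of 8.88 against PBS (adjusted p = 0.498 by edgeR). Against AAVrh.10Null it was at 9.53 (adjusted p = 0.527 by edgeR). A missing call in these comparisons therefore does not show that levels were equal. DESeq2 called 0 members in each comparison too, and 44, 2 and 0 genes in all, while limma-voom called 0 genes and members in each. At an unadjusted p under 0.05, edgeR had 0, 1 and 3 members, and 1460, 1078 and 914 genes. Without mice 6 and 7, a setting chosen after seeing the data, edgeR also called 0 members in each. The comparisons share control samples, so their values are given side by side.

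**Figure D4:**
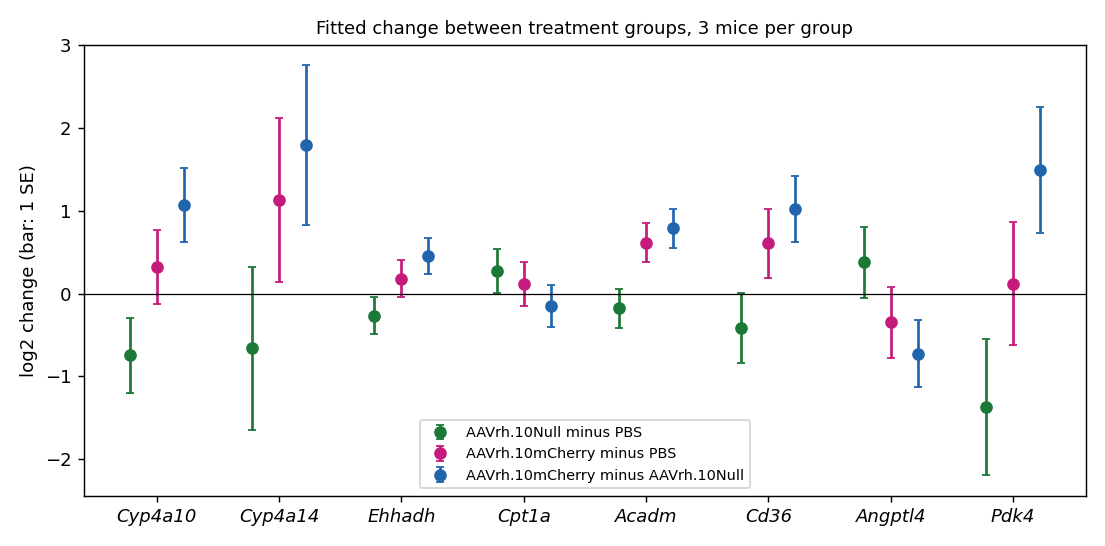
Fitted log2 change (vertical axis, bars are 1 SE) of the 8 genes in each of the 3 comparisons of treatments, n = 3 mice per group. The bars of Cyp4a14 are the widest among the enzymes (SE 0.96 to 0.99) and those of Ehhadh the narrowest (SE 0.21 to 0.22). No change passed.

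AAVrh.10mCherry minus AAVrh.10Null had the widest shifts, with 6 of 8 members above 0 and a median log2 change of 0.91, beside a median of 0.11 and 61.8% above 0 over all 11321 genes. Groups did not overlap for 3 members that were higher (Acadm, Ehhadh and Pdk4) and 1 that was lower (Angptl4), against 12% and 4.55% of all genes. For Ehhadh and Pdk4 the gap between the nearest livers was within counting error. AAVrh.10mCherry minus PBS had 7 of 8 above 0, with a median of 0.25 beside 0.16 and 65% over all genes, and 1 member was higher and 0 lower without overlap (background 14.4% and 2.37%). AAVrh.10Null minus PBS had 2 of 8 above 0, with a median of -0.34 beside 0.02 and 52%, and no member separated these groups (background 12.3% higher, 6.87% lower). TMM scaling moved the all-gene median from 0.16 to 0.02 for AAVrh.10mCherry minus PBS and from 0.11 to 0.00 for AAVrh.10mCherry minus AAVrh.10Null. Under it Acadm was at 0.48 and 0.67.

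The wider pathway was described with 112 genes in 9 lists by role, members included. Of the 106 tested, edgeR called 0 in each comparison, with 7, 4 and 16 at an unadjusted p under 0.05. These are 6.60%, 3.77% and 15.1% of the pathway genes, beside 12.9%, 9.52% and 8.07% of all genes, so the first and second counts lie below the share over all genes and the last lies above it. For AAVrh.10mCherry minus AAVrh.10Null, mitochondrial beta-oxidation had 12 of 18 above 0 (median log2 change 0.21), peroxisomal beta-oxidation 11 of 17 (0.19) and ketogenesis 5 of 5 (0.34). The shares of both beta-oxidation lists, 66.7% and 64.7%, were close to the 61.8% of all genes above 0 (median 0.11). Omega-oxidation had 3 of 11 above 0 (-0.34), and these 3 included Cyp4a10 and Cyp4a14. Groups did not overlap for 14 higher and 6 lower pathway genes, which are 13.2% and 5.66% of the 106 and close to the 12% and 4.55% of all genes. In the same comparison the carnitine acetyltransferase Crat was at 0.96 (SE 0.27, adjusted p = 0.603 by edgeR), and Acot3 at 3.76 (SE 1.07, adjusted p = 0.603), the latter with 215 of its 256 AAVrh.10mCherry UMIs from mouse 6. Below 0 were Cyp4f15, another fatty acid hydroxylase, at -0.76 (adjusted p = 0.603), the bile acid and fatty acid ligase Slc27a5 at -0.58 (adjusted p = 0.607) and the coactivator Ppargc1b at -0.87 (adjusted p = 0.607).

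Ppara itself, the receptor, was at 83.9, 61.9 and 106 CPM in PBS mice 1, 4 and 7 and at 115, 103 and 143 in AAVrh.10Null mice 2, 5 and 8. In AAVrh.10mCherry mice 3, 6 and 9 it was at 88.0, 105 and 95.9. The PBS range overlapped both others. Receptor and coregulator genes had 10 of 12 above 0 for AAVrh.10Null minus PBS (median 0.50), beside 52% of all genes (median 0.02). They also had 10 of 12 above 0 for AAVrh.10mCherry minus PBS (median 0.34), beside 65% (median 0.16), a comparison that shares the PBS livers. For AAVrh.10Null minus PBS, mitochondrial beta-oxidation had 4 of 18 above 0 (-0.17). Lpin1, a coactivator and phosphatidate phosphatase, was at 1.08 (SE 0.37, adjusted p = 0.256 by edgeR), Ppargc1b at 1.14 (adjusted p = 0.269) and Cyp4f15 at 0.60 (adjusted p = 0.294). Lpin1 was at 69.8 and 64.8 CPM in mice 2 and 8 but 25.5 in mouse 5, within the PBS range of 19.3 to 30.2. Mice 2 and 8 are also those with the fewest undetermined barcode ends and, with mouse 7 of PBS, the most Malat1. The part of these library differences in the Lpin1 value and in the receptor and coregulator counts was not tested. The lowest p below 0 were those of the kinase Pdk1 (-0.53, adjusted p = 0.288), Crat (-0.54, 0.455) and the lysosomal glycoprotein Creg1 (-0.44, 0.478).

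For AAVrh.10mCherry minus PBS, Acot3 was at 4.49 (SE 1.28, adjusted p = 0.498 by edgeR), the corepressor Nrip1 at 0.78 (adjusted p = 0.503) and the bile acid hydroxylase Cyp8b1 at -1.04 (adjusted p = 0.509). The lipid droplet protein Cideb was at -0.42 and Cyp4a12b at -1.63. Cyp8b1 was at 33.6 CPM in mouse 6 and 145 to 189 in mice 3 and 9, against 216 to 313 in PBS. The liver fatty acid binding protein Fabp1 was likewise lowest in mouse 6, at 4313 CPM against 12156 to 17903 in the other 8 livers. Mouse 6 thus had the highest Cyp4a10, Cyp4a14, Acot3 and Cd36 and the lowest Cyp8b1 and Fabp1.

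Oxidative enzymes are unevenly spread along the liver lobule, so barcodes were also split within each liver by landmark transcripts. The score was the pericentral share among UMIs of 11 pericentral and 9 periportal genes, none of them a member, and barcodes ranked by it were cut into 3 parts per liver. The highest and lowest parts were compared with the mouse as a block. Mouse 7 had 45 scored barcodes and was left out, so n = 8 livers. The limits differed between livers: the lowest part reached a pericentral share of 62.5% in mouse 9, while the highest part began at 37.5% in mouse 8. Median UMIs per barcode were higher in the lowest part of each liver, from 1094 against 1088 in mouse 4 to 1407 against 948 in mouse 8. The part of depth in the changes below was not tested. Between 34.9% and 55.5% of scored barcodes lay within 5 percentage points of a limit between parts, so these are ranges of a score and not cell types. Of 2 further periportal genes, Ass1 and Arg1 had ratios of 1.01 and 1.08, so the split did not sort every zonated gene.

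Cyp4a10 was higher in the part with the highest pericentral share in 8 of 8 livers, at 170 ± 111 against 136 ± 84.3 CPM (SD). Its log2 change was 0.28 (SE 0.07, adjusted p = 0.0038 by edgeR), and 3.34% of 7003 tested genes were called higher and 5.08% lower. Of the 7 members tested, 5 were above 0 (54.1% of all genes) and Cyp4a10 alone passed. The call was lost with at least 15 landmark UMIs per barcode (0.22, adjusted p = 0.189), where 2992 genes remained. Acadm was higher there in 8 of 8 livers too, but by 0.14 (SE 0.05, adjusted p = 0.109 by edgeR). Its ratio was only 1.01 and 1.02 in mice 3 and 2. The share of all genes with the same direction in 8 of 8 livers was not computed. Cd36 had 0.36 (adjusted p = 0.141), Angptl4 -0.19 with 7 of 8 livers below 0 (adjusted p = 0.213), and Cyp4a14 0.10 with 6 of 8 above (adjusted p = 0.541). Cpt1a (-0.08) and Ehhadh (0.07) were close to 0. Pdk4 was too sparse to pass the low-count filter, at a mean of 3.56 against 1.27 CPM, higher in 7 livers and lower in 0. These directions rest on very few UMIs: the whole-liver sums of mice 4 and 8 held only 6 and 4. Pdk4 was at 1.82 against 1.68 CPM in mouse 4 and at 2.13 against 0 in mouse 8. The parts also differ in total UMIs, so a higher level need not mean more Pdk4 UMIs, and its direction is not settled.

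**Figure D5:**
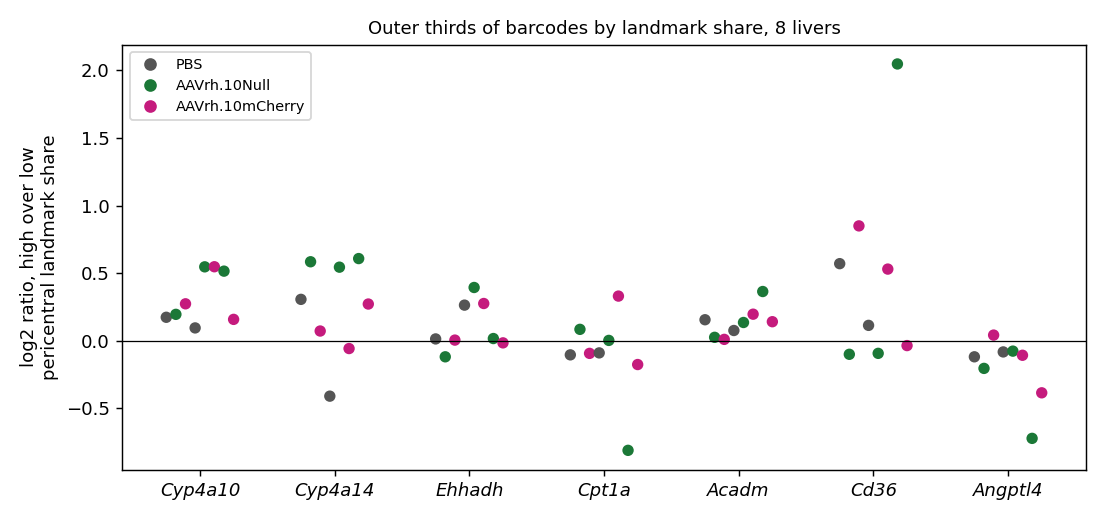
Log2 ratio of levels (vertical axis) in barcodes with a high over a low pericentral share of landmark UMIs, for 7 genes (horizontal axis) in 8 livers coloured by treatment. Cyp4a10 and Acadm lie above 0 in 8 of 8 livers, and Angptl4 lies below 0 in 7 of 8. Acadm is close to 0 in mice 3 and 2 (ratios of 1.01 and 1.02).

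Of the 96 pathway genes tested in this split, 15 were higher and 9 lower by edgeR, where 8.42% of all genes were called, 39.7% of them higher (27.6% under TMM scaling). Those higher included Aldh3a2, a fatty aldehyde dehydrogenase (0.66, SE 0.12, adjusted p = 0.000167), Phyh, of peroxisomal alpha-oxidation (0.24), the thiolase Acat1 (0.26) and the enoyl-CoA isomerase Eci2 (0.27). Those lower included Slc27a5 (-0.46, adjusted p = 3.69e-06), Lpin1 (-0.53), the retinol saturase Retsat (-0.25), Cyp4f15 (-0.32) and Creb3l3, a transcription factor that acts with PPARA (-0.20). Mitochondrial and peroxisomal beta-oxidation had 5 and 3 genes higher and 0 lower. The count of 24 fell to 14 without mouse 1, 2, 4 or 6 and to 13 without mouse 9, to 13 by DESeq2 and to 14 with 2 parts per liver in place of 3. At an unadjusted p under 0.05 by edgeR were 49.0% of the pathway genes and 21.7% of all genes. The pathway genes were not matched to all genes by level, and the part of level in these counts was not tested.

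Genes whose pattern over the 9 livers was closest to a member's were sought among 4473 genes with a mean of at least 20 CPM. For Cyp4a10 these were Tpt1 and Fau, at root mean square differences of 0.26 and 0.27 between centred log2 levels, against a spread of 0.65 for Cyp4a10 itself. For Cyp4a14, Rpl36 and Slco1a4 were nearest but stood at 0.81 and 0.83 against 1.29, so no gene followed it closely. Cd36 was nearest to Iqgap2 and Fmo1 (0.16 each against 0.43), Acadm to Ppfibp1 and Fmr1 (0.15 each against 0.39) and Angptl4 to 2510002D24Rik and Erbb3 (0.29 and 0.30 against 0.55). Cpt1a was nearest to Il6st and Plxnb2 (0.10 and 0.12 against 0.26) and Ehhadh to Slc25a13 and Hnrnpk (0.11 each against 0.24). No genes are named for Pdk4, which in 8 of 9 livers lay below the 10 CPM added before taking logs, so that its pattern was nearly flat. The same addition flattens that of Cd36 in part. The livers share depth and composition effects across genes, so these distances are descriptions.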

How the data were processed

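UMIs per gene and barcode were used as deposited: whole-number counts, not scaled, in 1 table per mouse, from 48000 barcodes. Per the labels, Drop-seq libraries were read for 101 cycles on a HiSeq 2500. The deposited readme names bcl2fastq 2.19, and the submitters' processing notes name mm10 and Seurat. No source used here gives the aligner, the counter or how barcodes were chosen.

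Barcodes with at least 200 genes (44898) were summed per liver, giving 291338 to 11220147 UMIs. edgeR 4.0.16 (R 4.3.3) quasi-likelihood tests with filterByExpr used all 9 mice in 1 fit, group as the only term, all UMIs of a liver as library size and Benjamini-Hochberg adjustment over all genes (threshold 0.05). Replicate numbers are not shared between groups. The labels name separate mice. Intervals are exact 95% Poisson and cover counting error only. limma 3.58.1, DESeq2 1.42.0, TMM and other filters served as alternatives, and tests were tested on simulated data. Doublets were not removed. Both sums of a liver in the landmark split came from the same animal, so mouse was a block there, with at least 8 landmark UMIs per barcode.

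The named genes are the 8 members, and per comparison up to 5 pathway genes per direction with the smallest p among those called, or 3 per direction where fewer than 3 were called. The 2 genes nearest to each member were found on log2(level + 10), and those of Pdk4 are left out because its levels lie below that addition. Genes of mouse 6, Ppara and the other Cyp4a genes were chosen after their values were seen. Members and lists were chosen with earlier results of these data known. Python 3.11.15 with numpy 2.4.6, scipy 1.17.1, pandas 2.3.3 and matplotlib 3.10.9 was used.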

Additional observations from a re-analysis of the deposited data

Results flagged for a closer look

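Barcodes with under 200 genes were left out of the sums, and in mouse 7 these were 3050 of 3600, with 791753 UMIs and a median of 255 per barcode. They held 7 of the 8 members above 3 UMIs, the limit that a count of 0 allows (3.79 CPM). Acadm was at 328 CPM, Cyp4a10 at 123, Angptl4 at 73.3, Cyp4a14 at 55.6, Cpt1a at 46.7, Ehhadh at 46.7 and Cd36 at 6.32. Pdk4 had 1 UMI. In the retained barcodes of the same mouse, Cyp4a14 was at 110, Cpt1a at 85.8 and Acadm at 333 CPM.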

How the results depend on the processing

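Of 564 recomputed member changes, 542 kept direction and side of the threshold, 17 turned direction, 3 were newly called and 2 lost the call; none of the 17 was called in either setting. Without mice 2, 7 and 8, which leaves AAVrh.10Null with mouse 5 alone, assumed to vary like the other groups, Acadm (0.02) and Pdk4 (0.25) turned for AAVrh.10Null minus PBS and Angptl4 (0.09) for AAVrh.10mCherry minus PBS. In the latter Cpt1a and Pdk4 turned under TMM (-0.01, -0.02) and DESeq2 (-0.00, -0.21). Without mice 6 and 7, chosen after seeing the data, Cyp4a10 (-0.35), Cyp4a14 (-0.24) and Angptl4 (0.42) turned there. Leaving out each mouse gave -0.25 to 0.98 for Cyp4a10, -0.44 to 1.71 for Cyp4a14, -0.08 to 0.39 for Cpt1a, -0.48 to 0.52 for Pdk4 and -0.71 to 0.09 for Angptl4 in that comparison, and -0.32 to 0.06 for Cpt1a against AAVrh.10Null.

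With no filter on low counts, 26282 genes were tested, and edgeR called 385 genes and 2 pathway genes for AAVrh.10Null minus PBS, 139, 7 and 1 member (Cyp4a14, adjusted p = 0.0205) for AAVrh.10mCherry minus PBS, and 179, 5 and 2 members (Cyp4a10, 0.0232, and Cyp4a14, 1.19e-07) against AAVrh.10Null. The SE of Cyp4a14 was then 0.28 in place of 0.96; the cause was not tested. For AAVrh.10Null minus PBS, 1 gene was called, with 44 by DESeq2, 0 by limma-voom, 76 with at least 500 genes a barcode, 0 without mice 2, 7 and 8, and 0 to 6 without each mouse. For AAVrh.10mCherry minus PBS, DESeq2 called 2. For AAVrh.10mCherry minus AAVrh.10Null, 1 gene was called, with 3 under TMM, 0 by DESeq2, limma-voom, with every deposited barcode and without mice 2, 7 and 8, and 0 to 4 without each mouse. In the landmark split, 590 genes were called, with 323 by DESeq2, 341 with at least 15 landmark UMIs, and 390 to 599 without each mouse. Pathway calls there (24) were 13 by DESeq2, 14 with 2 parts per liver and 13 to 22 without each mouse. Member calls (1) were 0 with 15 landmark UMIs and 2 with no low-count filter. Without the block of mouse, which pairs both sums of a liver, 0 genes, 0 pathway genes and 0 members were called. Depth limits Pdk4 and Cd36 most, and mouse 7 throughout. No paired analysis was possible because mouse numbers are not shared between treatments.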
